A study of Mus musculus with 2 samples.

Results

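Gata3 ChIP-seq reads of TH2 cells formed 10800 sites on mouse chromosomes 1 to 19, and 8081 of these were distal, with their centre between 1 and 100 kb from the nearest protein-coding gene start. The regions described here are the 2260 distal sites (27.97%, 95% exact binomial interval 26.99 to 28.96%) whose centre held neither the sequence read by GATA factors nor the sequence read by AP-1. They were chosen by read height and by sequence. The genome (GRCm38) was tiled in 200-bp bins, the 5′ end of each read was moved 100 bp towards its 3′ end, and the reads of each bin were scaled to 1000000 counted reads of the library (RPM). A site is a run of touching bins with at least 0.8 RPM in both libraries, and its centre is the middle of the bin whose lower RPM of the 2 libraries is highest. A GATA sequence is the core GATA with A or T before it and A or G after it, as in AGATAA, on either strand. An AP-1 sequence is TGACTCA or the same letters with G in the middle. A member has neither lying wholly within 100 bp of its centre, which is the 200-bp centre bin.

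Of the other distal sites, 4623 held a GATA sequence only, 431 an AP-1 sequence only and 767 both. The 2 libraries, replicates 1 and 2, come from TH2 cells cultured from spleen and immunoprecipitated with an antibody against Gata3. There was no other condition, so that no treatment or genotype was compared. The paper calls the cells of this assay in vitro TH2 cells. It describes its TH2 cultures as splenic naive CD4+ T cells given anti-CD3, anti-CD28, IL-2, IL-4 and anti-IFN-γ, and its mouse strains as being on the C57BL/6 background. The labels give no genotype, age or sex and do not say whether the replicates came from separate animals or cultures, so the spread between them may be technical. The labels name ILC2 in the extraction step and TH2 cells elsewhere, and the read names of the libraries come from different sequencing instruments, so library and instrument cannot be told apart. Neither an input nor an IgG library was used. Library 1 held 39287837 reads on these chromosomes and library 2 held 24084150, and 0.8 RPM corresponded to at least 32 and 20 reads in a bin. Within 2 kb of the gene start, reads stood at 8.50 to 25.8 RPM in library 1 and 6.98 to 30.6 RPM in library 2 at the T cell genes Cd3d, Cd3e and Cd4, and at 5.60 to 33.6 and 4.86 to 33.7 RPM at the TH2 genes Gata3, Il4 and Il13. Another listed T cell gene lay in a stretch without reads and was not analysed here. The markers of B cells, myeloid cells and hepatocytes ranged from 0.687 (Lyz2) to 2.42 RPM (Alb and Apoa1) in library 1 and from 0.872 (Lyz2) to 3.20 RPM (Alb) in library 2. The markers are those of T cells and of TH2 cells, and the list does not separate TH2 cells from ILC2.

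Gata3 is the zinc finger transcription factor that establishes and maintains the TH2 programme, in which Il4, Il5 and Il13 are expressed. GATA factors read the core GATA, with the flanking bases setting how well they bind, and can also be recruited through partner proteins. AP-1, formed by Fos, Jun and Batf family proteins, is induced by T cell receptor signalling and occupies many enhancers of activated T cells. Enhancers are regulatory regions that can act on a gene from a distance, and ChIP-seq reads at such a region report DNA crosslinked near the antigen, whether or not the factor touches that DNA itself. In ChIPmentation, a transposase cuts the precipitated chromatin and adds the sequencing adaptors, so that the fragment ends also depend on where the transposase can cut.

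The sequences of 4 of the 10 tallest members show a GATA or AP-1 sequence at or just beyond the edge of a centre bin that held none in full. Such a sequence lay within 150 bp of the centre in 8 of the 10 tallest, but not in those at Panx1 and Atf3. Of all 2260 members, 39.3% had a GATA sequence and 7.97% an AP-1 sequence within that distance, so the 10 tallest do not stand for the rest. The 4 shown rank 4, 5, 8 and 10 by height and were picked from these 8 for display. Each is given as 300 bases around the centre, 5′ to 3′ on the plus strand of GRCm38 (RefSeq reference), with every GATA or AP-1 sequence in capitals. The middle 200 bases are the centre bin. The capitals lie outside it, except in the Agpat5 member, whose GATA sequence crosses the edge of the bin.
Agpat5 member, chr8:18863751-18864050: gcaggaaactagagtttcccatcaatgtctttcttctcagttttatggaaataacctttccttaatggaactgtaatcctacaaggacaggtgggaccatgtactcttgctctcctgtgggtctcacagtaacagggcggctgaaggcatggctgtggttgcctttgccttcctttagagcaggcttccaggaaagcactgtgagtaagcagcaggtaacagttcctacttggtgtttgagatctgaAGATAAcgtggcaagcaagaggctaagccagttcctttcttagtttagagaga
Ddx39 member, chr8:83716751-83717050: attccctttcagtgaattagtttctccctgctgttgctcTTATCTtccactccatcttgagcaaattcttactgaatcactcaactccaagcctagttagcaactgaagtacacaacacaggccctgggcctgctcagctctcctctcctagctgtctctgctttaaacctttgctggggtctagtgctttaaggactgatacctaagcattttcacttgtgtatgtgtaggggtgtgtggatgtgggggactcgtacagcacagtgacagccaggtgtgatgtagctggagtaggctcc
Sgip1 member, chr4:102711751-102712050: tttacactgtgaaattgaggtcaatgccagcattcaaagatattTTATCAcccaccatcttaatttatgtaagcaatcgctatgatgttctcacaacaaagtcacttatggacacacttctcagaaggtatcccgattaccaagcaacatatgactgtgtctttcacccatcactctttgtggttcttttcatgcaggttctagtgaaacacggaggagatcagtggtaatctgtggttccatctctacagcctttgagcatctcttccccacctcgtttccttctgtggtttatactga
Map3k5 member, chr10:19939151-19939450: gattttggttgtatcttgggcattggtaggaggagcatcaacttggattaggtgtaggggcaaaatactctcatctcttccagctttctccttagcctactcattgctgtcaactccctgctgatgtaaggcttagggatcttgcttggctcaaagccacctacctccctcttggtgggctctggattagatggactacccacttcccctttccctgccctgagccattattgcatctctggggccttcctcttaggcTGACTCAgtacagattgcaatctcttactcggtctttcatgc
The Agpat5, Ddx39 and Sgip1 members hold a GATA sequence 100, 108 and 103 bp from the centre, and the Map3k5 member holds an AP-1 sequence 111 bp from it.

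The tallest members with neither sequence within 250 bp of the centre are shown as their 200-bp centre bin, in order of height. They rank 2, 13 and 14 among all members, and those after the first were chosen for display after their values had been seen. Capitals mark the GATA core with its first base changed to C or G (as in CGATAA) or its last base changed to C or T (as in TGATAC). The contrast with the first set is fixed by how both were chosen.
Atf3 member, chr1:191194001-191194200: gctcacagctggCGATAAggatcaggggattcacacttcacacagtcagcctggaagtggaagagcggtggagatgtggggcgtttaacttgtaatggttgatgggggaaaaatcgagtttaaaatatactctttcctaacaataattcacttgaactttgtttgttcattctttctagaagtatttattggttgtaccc
Chd3 member, chr11:69366601-69366800: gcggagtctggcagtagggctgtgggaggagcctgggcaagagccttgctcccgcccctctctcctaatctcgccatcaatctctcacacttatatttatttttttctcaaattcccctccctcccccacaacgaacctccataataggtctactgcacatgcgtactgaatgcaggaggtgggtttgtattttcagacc
Mpig6b member, chr17:35068201-35068400: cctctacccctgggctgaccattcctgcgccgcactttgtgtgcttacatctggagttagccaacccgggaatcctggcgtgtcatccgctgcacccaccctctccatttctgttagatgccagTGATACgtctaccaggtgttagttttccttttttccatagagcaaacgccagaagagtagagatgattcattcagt
The Atf3 member holds CGATAA, the Mpig6b member holds TGATAC, and the Chd3 member holds none of these forms.

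The height of the members was a criterion of the choice and is therefore given as a description. The centre bin held 32 to 185 reads in library 1, with a median of 53, and 20 to 151 reads in library 2, with a median of 30. Scaled to depth, the median was 1.35 RPM in library 1 (quartiles 1.07 and 1.84, highest 4.71) and 1.25 RPM in library 2 (quartiles 0.997 and 1.74, highest 6.27). Distal sites with a GATA sequence only had medians of 1.5 and 1.33 RPM, so the members were the lower of these classes in both libraries. Over the mean of the bins 1 to 5 kb away, the members rose 10.2-fold in library 1 and 8.78-fold in library 2 at the median, against 11.2-fold and 9.58-fold for sites with a GATA sequence only. The local background itself was similar, at 0.135 and 0.148 RPM per bin around the members and 0.133 and 0.144 around sites with a GATA sequence only. The ratio of library 2 to library 1 had a median of 0.948 over the members, with a standard deviation of 0.34 on the log2 scale.

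**Figure D1:**
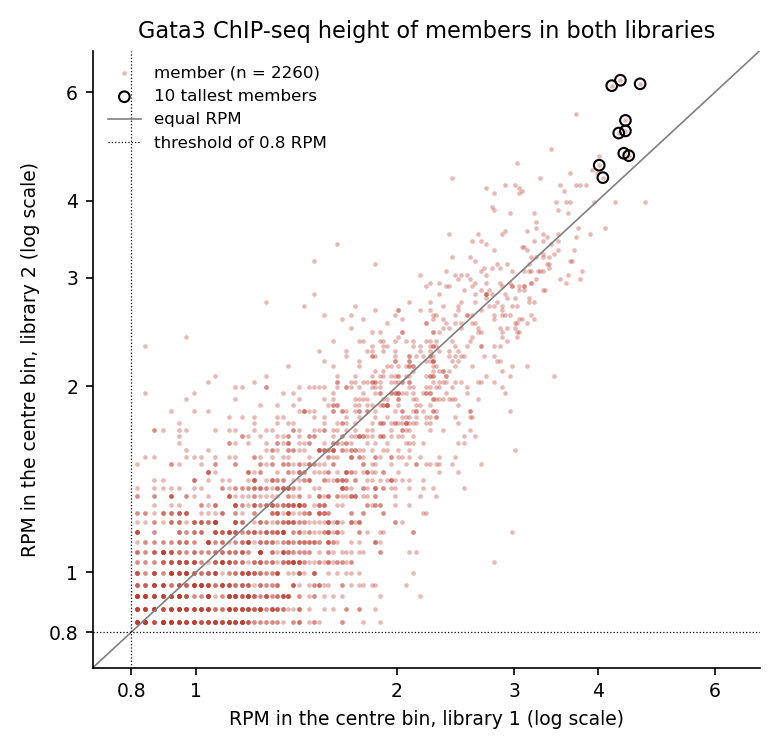
Each point is 1 of the 2260 members, with its RPM in the centre bin of library 1 on the horizontal and of library 2 on the vertical log axis, dotted lines at the threshold of 0.8 RPM and a grey line of equal RPM. Points crowd at the threshold in both libraries, with medians of 1.35 and 1.25 RPM, and the 10 tallest members (circles) lie above the line of equal RPM.

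Few members were tall. Both libraries reached 2 RPM at 314 members (13.89%, interval 12.49 to 15.39%), compared with 19.68% of sites with a GATA sequence only. Ordered by the lower RPM, the share of distal sites with neither sequence was 34.4% (interval 31.1 to 37.8%) in the lowest 10% of sites and 17.1% (14.6 to 19.9%) in the highest 10%. The share that held both sequences went the opposite way, from 5.81% in the lowest to 16.5% in the highest 10%. At the edge of the threshold, the 3 members just inside it, nearest to Slc18a2, Afap1l2 and Pdcd4, each had 32 reads in library 1, with 32, 23 and 20 in library 2, and the 3 motif-free runs just outside, near Bend6, Hjurp and Mdm4, had 31 reads in library 1 and 32, 28 and 33 in library 2. The edge is thus 1 read wide in library 1.

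**Figure D2:**
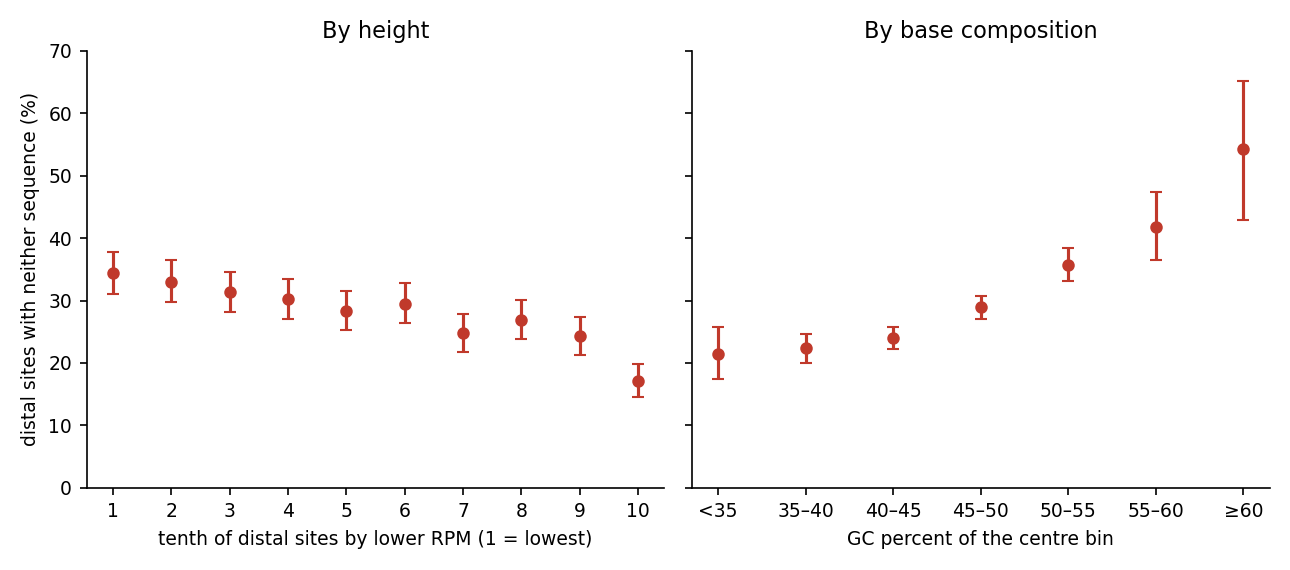
The percentage of distal sites with neither sequence, in 10 equal classes of the 8081 distal sites by lower RPM (left) and in classes of GC percent of the centre bin (right), with 95% exact binomial intervals as bars. The share lies at 34.4% in the lowest and 17.1% in the highest 10%, and at 21.4% under 35% GC and 54.2% at 60% GC or more.

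Aligned on their centres, the members showed a single rise of reads in both libraries. The mean signal reached 0.390 RPM per 50 bp in library 1 and 0.363 in library 2, 8.83 and 7.56 times the level at the edge of the 2-kb window on either side. Sites with a GATA sequence only reached 0.446 and 0.413 RPM per 50 bp, and sites with both sequences 0.514 and 0.488. Peak over edge was 9.88 and 8.41 for sites with a GATA sequence only and 12.8 and 10.7 for sites with both, so the members were lowest on that measure too. Plus-strand and minus-strand reads were balanced, with a median of 50% plus-strand reads per member in each library.

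**Figure D3:**
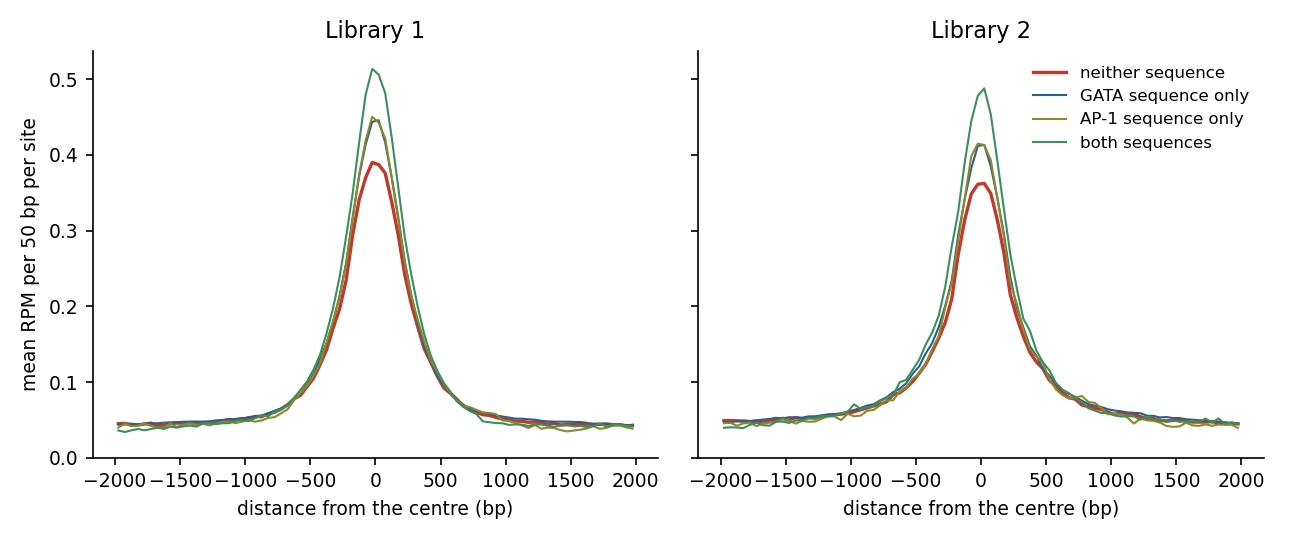
Mean RPM per 50 bp per site against the distance from the centre, for the 4 classes of distal sites in each library. The members (thick red line) peak at 0.390 and 0.363 RPM per 50 bp, below the other 3 classes.

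The strand balance was not used to choose the members and was tested per site with a two-sided exact binomial test, with Benjamini-Hochberg adjustment over all 10800 sites. In library 1, 0.0926% of all sites were called unequal at an adjusted p under 0.05 and 0 of the 2260 members were. In library 2, 0.102% of all sites and 2 members (0.0885%) were called. The counts of the libraries themselves were compared at the centre bin in the same way, against the ratio of total reads. At an adjusted p under 0.05, 0.444% of all sites and 10 members (0.4425%) differed, 7 of them higher in library 2, beside 28 of the 48 called over all sites. The counts compared are those that chose the members, and the threshold in both libraries limits how far a member can differ, so these numbers are a description of the libraries.

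A height that the choice had not used was available by taking sites from 1 library alone and reading them in the other. On library 1 alone, 3409 distal sites with neither sequence passed 0.8 RPM, and in library 2 these stood at a median of 0.872 RPM. A one-sided exact Poisson test against the local background of library 2, adjusted over all distal sites chosen on library 1, called 95.9% of all those sites and 3259 (95.6%, interval 94.9 to 96.3%) of those with neither sequence. In the reverse direction 98.2% of all distal sites chosen on library 2 were called in library 1, and 2984 of 3080 (96.88%, interval 96.21 to 97.47%) of those with neither sequence were. For sites with a GATA sequence only, the called shares were 95.9% (95.4 to 96.3%) and 98.6% (98.2 to 98.9%). The interval of the motif-free sites thus overlapped that of the GATA sites in library 2 and lay below it in library 1, the deeper library. The motif-free sites were also somewhat lower in the library they were chosen on, with medians of 1.12 RPM against 1.2 for GATA sites in library 2, and the part of height in this difference was not tested. The share that reached 0.8 RPM again in the other library was 55.9% of motif-free and 55.9% of GATA sites going from library 1 to library 2, and 73.0% and 82.2% going back.

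Many members lay close to a GATA sequence that the rule did not count. A GATA sequence lay elsewhere in the run of bins of 929 members (41.11%), and 88 more (3.89%) held an AP-1 sequence there and no GATA sequence. In 1243 members (55%, interval 52.9 to 57.1%) neither sequence lay anywhere in the site. These were mostly narrow: 71.5% of them were 1 bin wide, against 39.34% of all members. They were also lower, with medians of 1.15 and 1.08 RPM in libraries 1 and 2, against 1.73 and 1.58 RPM for the 929 members with a GATA sequence in the site. A wider site has more room for a hexamer, and the share with one was 57.6% at 400 bp, 76.5% at 600 to 800 bp and 88.9% at 1000 bp or more. Among the 100 tallest members 83 had a GATA sequence in the site and 8 an AP-1 sequence only, which left 9 with neither. Over a fixed 250 bp from the centre, 63 of these 100 had a GATA sequence and 30 had neither sequence. Of all members, 66.3% and 27.7% did, so over this distance the tallest were no nearer to a GATA sequence.

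Compared over a fixed distance, so that width played no part, GATA sequences were denser next to the members than farther out. Between 100 and 150 bp from the centre 889 members (39.3%, interval 37.3 to 41.4%) had a GATA sequence in at least 1 of the flanks. The same search around positions 3 kb away whose own 200 bp held neither sequence found 512 of 3018 (17.0%, interval 15.6 to 18.4%). Extended to 200 bp, the shares were 56.6% of the members and 31.0% of the distant positions, and by 1000 bp they were 97.4% (interval 96.7 to 98.1%) and 95.6% (94.8 to 96.3%). AP-1 sequences were found between 100 and 150 bp in 180 members (7.97%, interval 6.88 to 9.16%) and 1.89% (1.43 to 2.44%) of distant positions. By 1000 bp these shares were 41.1% (39.1 to 43.2%) and 29.9% (28.3 to 31.6%), still apart.

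Counted by distance, the members had 4.70 GATA sequences per kb between 100 and 200 bp from the centre. This was close to the 4.60 per kb of sites with a GATA sequence only. Sites with an AP-1 sequence only had 3.50 per kb there and sites with both sequences 2.80. The density was 3.86 per kb at 200 to 300 bp, 3.02 at 500 to 600 bp and 2.23 at 1900 to 2000 bp, against a mean of 2.62 per kb over chromosomes 1 to 19. AP-1 sequences stood at 0.706 per kb between 100 and 200 bp, over 0.166 per kb on the chromosomes as a whole. Inside 100 bp the rule leaves only matches that cross the bin edge, which were 44 GATA sequences (0.0974 per kb). The density of GATA sequences just outside the searched bin was thus close to that of sites with a GATA sequence only, and above that of the other 2 classes.

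**Figure D4:**
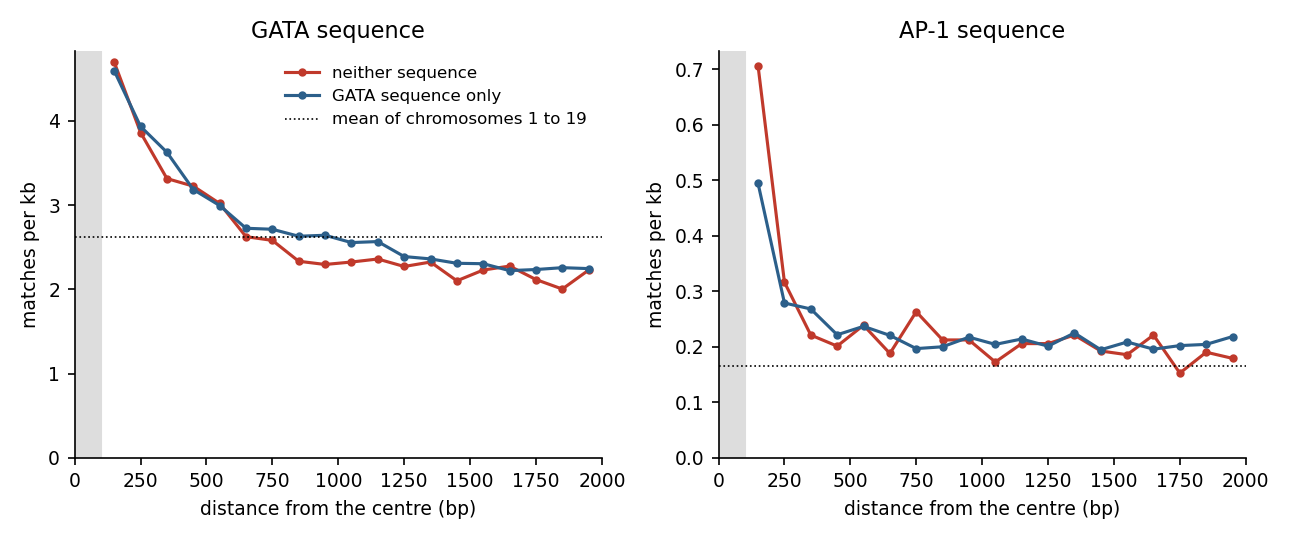
Matches per kb of the GATA sequence (left) and the AP-1 sequence (right) against the distance from the centre in steps of 100 bp, for the members and for distal sites with a GATA sequence only, with the mean of chromosomes 1 to 19 as a dotted line and the searched bin in grey. The members reach 4.70 GATA and 0.706 AP-1 sequences per kb just outside the bin and fall to 2.23 GATA sequences per kb at 2 kb.

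How much of this rests on the grid was measured by moving the centre to the 200-bp window, in steps of 10 bp, with the highest lower RPM within 200 bp of the centre bin. This was added after the values above had been seen. The centre moved by a median of 50 bp, and 609 members (26.9%) then had a GATA sequence within 100 bp, 79 had an AP-1 sequence only and 1572 (69.6%) still had neither. In exchange 363 other distal sites lost their sequence, so that 1935 of the 8081 distal sites (23.9%) had neither at the refined centre.

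The centre bins were next searched for other sequences, each on both strands, beside the 3016 bins 1 kb away from a member that also held neither the GATA nor the AP-1 sequence (66.7% of all bins at that distance). The core GATA in any context was in 56.4% of members (interval 54.3 to 58.4%) and 40.7% of flanking bins (38.9 to 42.4%). By the rule a base beside such a core has to be changed, except where the core lies at the edge of the bin. The letters reversed (ATAG) were in 60.8% and 59.7%. The forms with only the last base changed to C or T (as in TGATAC), separated after the first values had been seen, were in 37.6% and 23.7%. The forms with only the first base changed to C or G were in 17.7% and 13.0%, and the forms with both changed in 12.3% and 12.0%. The higher share of the core was thus found in the forms 1 base from a GATA sequence and not in those with 2 changes. Distal sites with an AP-1 sequence only, which also lack a GATA sequence in the bin, held the core in 58.5%. The forms with only the last base changed were in 42.9% of them, so these forms were not particular to the members.

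The same forms were counted in members farther from a GATA sequence. Of the 626 members with neither a GATA nor an AP-1 sequence within 250 bp of the centre, 60.1% (interval 56.1 to 63.9%) held the GATA core and 40.3% (36.4 to 44.2%) the forms with the last base changed. Of the 1243 members with neither in the whole site, 56.0% and 38.2% did, but most of these sites are 1 bin wide and can have a GATA sequence just outside it. No order between these groups can be read, since their intervals overlap. The core GATC, to which GATA factors can also bind, was in 47.9% of members and 38.1% of flanking bins, and GATT in 77.3% and 69.0%. With their letters reversed, members still stood 4.5 percentage points above the flanking bins for GATC and 5.21 points for GATT.

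All hexamers were then counted in the same bins, which was added after these values and recounts the same sequences. Among 1567 hexamers found in at least 150 of the bins, the median ratio of the share in members to the share in flanking bins was 1.03. The hexamer with the highest ratio was GAGATA, in 7.08% of members and 2.75% of flanking bins (ratio 2.57). It was followed by CTAATC (2.09), GATTAC (2.09), AGATTA (2.07) and AGATAC (2.02). Of the 24 hexamers with the highest ratios 22 contained GAT or its complement ATC, which 10.2% of all compared hexamers did. This grouping followed the values for GATA, GATT and GATC. The others were GTCATA (ratio 1.85) and TAGTCA (1.80), the latter in 14.6% and 8.09% of bins and, read as TGACTA on the other strand, sharing its start with the AP-1 sequence. With its letters reversed, GAGATA had a ratio of 1.02 and AGATTA of 1.06, while TAGTCA had 1.66 and CTAATC is its own reversal. Bins and hexamers overlap each other, so these ratios are a description.

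A form 1 base from the AP-1 sequence was also more frequent. TGANTCA, which here can only have A or T in the middle, was in 146 members (6.46%, interval 5.48 to 7.55%) and 2.49% of flanking bins. With these middle bases it holds GATT or its complement AATC, so the match does not separate AP-1 from GATT. With its letters reversed it was in 6.86% and 4.97%. Sites with a GATA sequence only held it in 5.95%, so that it was not particular to the members. TGACGTCA, the cyclic AMP response element read by CREB and ATF proteins, was in 10 members (0.4425%) and 0.0332% of flanking bins, which is 1 bin. Of the bins 3 kb away it was in 0.199%, of sites with a GATA sequence only in 0.346%, and with its letters reversed it stood at 0.841% of members and 0.365% of bins at 1 kb, so that the size of its excess depends on the flank taken. Its 10 members had medians of 1.83 and 1.56 RPM, and the tallest, near 1810046K07Rik, reached 3.23 and 3.24 RPM.

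Of the sequences of other T cell factors, 4 stood above the flanking bins with intervals that did not overlap. The STAT site TTCNNNGAA was in 8.81% of members and 6.03% of flanking bins, the ETS site GGAAGT in 16.5% and 11.8%, the RUNX site TGNGGT in 40.6% and 35.8%, and the NF-kB site in 4.29% and 2.42%. In the same order, sites with a GATA sequence only held these in 7.2, 14.2, 37.5 and 2.4%. Sites with an AP-1 sequence only held them in 6.5, 10.9, 39.2 and 3.5%, and sites with both sequences in 8.1, 14.6, 37.8 and 2.0%. Whether the members differ from these classes was not tested. The STAT site with 1 more base in its gap, the spacing read by STAT6, which carries the IL-4 signal, was in 6.90% of members and 5.90% of flanking bins, with overlapping intervals. The SP/KLF site GGGCGG was in 5.09% and 3.78%, again with intervals that overlapped.

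Other sequences did not separate from the flanking bins. The shares were 18.3% and 17.8% for the NFAT site TGGAAA, 14.5% and 14.0% for the TCF/LEF site CTTTGA, 14.2% and 14.8% for the E-box CAGGTG, 10.5% and 9.25% for CAGCTG, and 2.74% and 2.72% for CACGTG. They were 14.5% and 14.5% for CCACCC (KLF), 22.4% and 22.8% for CCAAT (NFY), 13.2% and 12.7% for AGGTCA (nuclear receptors), 3.45% and 2.89% for the IRF site and 3.23% and 2.82% for the ETS form CCGGAA. The EGR site GCGTGGGCG and the NRF1 site were in 0 of 2260 members, for which the exact interval reaches 0.163%. A match says only that the letters are present.

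The core sequence of CTCF, the zinc finger protein that marks boundaries of chromatin loops, was rare and more frequent in the members than in the flanking bins. It was in 24 members (1.06%, interval 0.682 to 1.58%) and in 0.133% of flanking bins. Sites with a GATA sequence only held it in 0.887%, so that it was not particular to the members. The 24 members had 0.865 to 3.41 RPM in library 1 (median 1.45) and 0.830 to 3.41 RPM in library 2 (median 1.18), and the tallest were nearest to Wee1, Ddx28, Smg9 and Mrtfa.

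**Figure D5:**
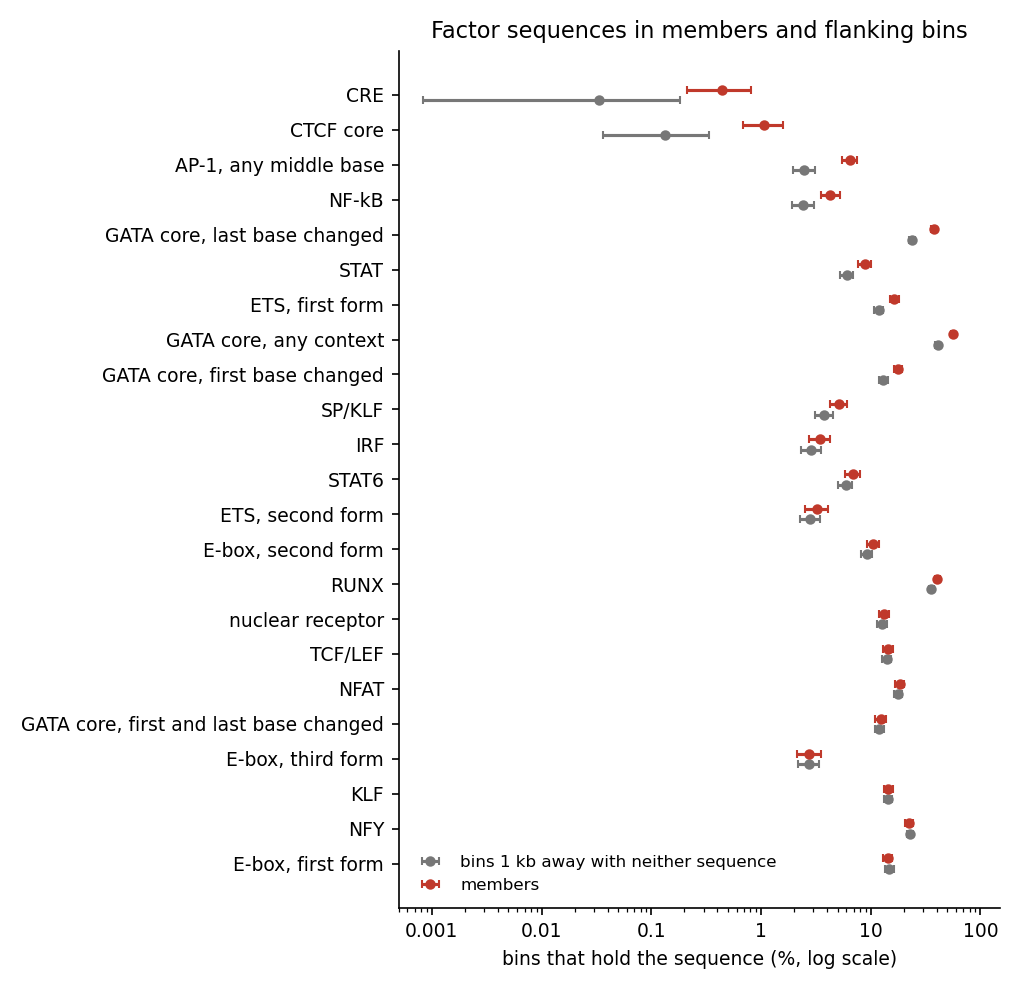
The percentage of the 2260 members (red) and of the 3016 flanking bins 1 kb away with neither the GATA nor the AP-1 sequence (grey) that hold each factor sequence, on a log axis with 95% exact binomial intervals, ordered by the ratio. The intervals are apart for the CRE (1 flanking bin at 1 kb, and 0.199% of bins at 3 kb), the CTCF core, AP-1 with any middle base, NF-kB, STAT, the first ETS form, RUNX and 3 of the GATA core forms. They overlap for the others, of which SP/KLF, IRF, STAT6 and the second ETS form lie above RUNX.

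Read starts, the points where the transposase cut, were counted within 5 bp of a match and 20 to 50 bp away from it, and the ratio of their densities was taken. At RUNX matches in the members the ratio was 1.12 in library 1 and 1.22 in library 2, and in the flanking bins 1.11 and 1.22. At ETS matches it was 1.01 and 1.07 in the members and 0.929 and 1.09 in the flanking bins, and at TCF/LEF matches 0.859 and 0.858 against 0.768 and 0.749 in flanking bins. At the 24 CTCF matches the ratios were 1.38 and 2.26, from 224 and 154 starts near the match. At 41 CTCF matches in sites with a GATA sequence only they were 1.39 and 1.83, from 453 and 282 starts, while the 4 matches in flanking bins held 8 and 4 starts.

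Members were richer in G and C than sites with a GATA sequence, and the rule excludes a hexamer rich in A and T, whose part in this was not tested. The median GC content of the centre bin was 46.5% against 44% for sites with a GATA sequence only and 46.0% for the flanking bins filtered in the same way. The share of distal sites with neither sequence was 21.4% under 35% GC and 54.2% (interval 42.9 to 65.2%) at 60% or more, a class of only 83 sites. CpG-rich members, with 5 or more CpG in the bin, were 337 (14.9%), as in the flanking bins (14.75%), and 46 members (2.04%) were at least 50% repeat-masked.

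The place of the members in the genome was close to that of sites with a GATA sequence only. Their centre lay in an intron of a protein-coding gene in 1236 cases (54.7%), in an exon in 135 (5.97%) and between genes in 889 (39.34%), against 55.8%, 5.36% and 38.8% of sites with a GATA sequence only. The median distance to the nearest protein-coding gene start was 20494 bp against 21596 bp. Sites with AP-1 only and with both sequences lay farther out, with medians of 24255 and 24581 bp. A gene start lay 1 to 5 kb away for 18.7% of members (interval 17.1 to 20.4%) and 17.3% of sites with a GATA sequence only, against 11.8% (8.94 to 15.3%) of those with AP-1 only and 13.2% (10.9 to 15.8%) of those with both. Another site with a GATA sequence lay within 10 kb of 576 members (25.5%) and of 25.7% of the sites with a GATA sequence only.

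The 10 tallest members, by the lower RPM of the libraries, all reached at least 4 RPM in both and are given with the nearest protein-coding gene, which need not be the gene they act on. The tallest lay between genes 49777 bp downstream of the start of Panx1, which encodes a membrane channel, at chr9:14995001-14996600, with 182 reads in library 1 (4.63 RPM) and 6.19 RPM in library 2. It stood 32.3-fold and 30.4-fold over the local background, and a GATA sequence lay 169 bp from its centre. The next, in an intron of Atf3, a stress-induced member of the ATF family, had 175 and 114 reads (4.45 and 4.73 RPM) at chr1:191193401-191194600. It stood 9.14-fold and 8.27-fold over a local background of 19.1 and 13.8 reads, the highest among these 10.

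Introns held 4 more of the 10. They lay in Agpat5, an acyltransferase of phospholipid synthesis (4.40 and 5.40 RPM), Ddx39, an RNA helicase (4.38 and 4.78 RPM), Abcb9, a peptide transporter of lysosomes (4.07 and 4.36 RPM), and Map3k5, a kinase of the stress response (4.02 and 4.57 RPM). The other 4 lay between genes, with the pair upstream of Sgip1, an endocytic adaptor, at 4.33 and 6.27 RPM and at 4.20 and 6.15 RPM, the member upstream of Tigd2 at 4.40 and 5.19 RPM, and that 80036 bp upstream of Cd44, the hyaluronan receptor of activated T cells, at 4.30 and 5.15 RPM. In each of the 10 library 2 was above library 1, while over all members library 2 was above in 916 (40.5%). Of these 10 members 8 held a GATA sequence elsewhere in the site, 100 to 279 bp from the centre, and the members at Cd44 and Map3k5 an AP-1 sequence.

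The members farther than 250 bp from either sequence were nearly as tall. After Atf3 they began with Chd3, a chromatin remodeller, at 167 and 96 reads (4.25 and 3.99 RPM), Mpig6b, a receptor of platelets, at 185 and 96 reads (4.71 and 3.99 RPM), and Cd247, the zeta chain of the T cell receptor complex, at 155 and 96 reads (3.95 and 3.99 RPM). Next came the sites near Tbkbp1 (3.77 and 4.24 RPM), Zbp1 (3.74 and 3.61 RPM) and S1pr4, a lipid receptor of lymphocytes (3.56 and 4.15 RPM). Those near Retsat (3.72 and 3.49 RPM), Tnfaip3, an inhibitor of NF-kB (3.49 and 3.86 RPM), and Btla, an inhibitory receptor of lymphocytes (3.49 and 3.45 RPM), completed the first 10. Among these 10, the members at Chd3 and S1pr4 had neither sequence in the whole site, which reached 1000 and 800 bp. Over all 626 such members the medians were 1.40 and 1.29 RPM, slightly above the 1.35 and 1.25 RPM of all members.

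The members were spread over 1831 nearest genes, of which 1508 had 1 member, 246 had 2 and 77 had 3 or more. Of the 4643 genes nearest to any distal site, 893 had members only, and 938 had a member and another class of distal site too. Members were 27.97% of all distal sites, and the same counts were not made for the other classes. The most members were nearest to Cd200, an inhibitory ligand on lymphocytes, with 7 of 8 distal sites, and to Slco3a1, a transporter, with 6 of 11. Thy1, a surface glycoprotein of T cells, had 5 of 7, and Abtb2, Man1a, Prkch, Tesc and Tmem154 also had 5 members each. Csf2 had 4 of 6, Dusp6, a phosphatase of ERK, 4 of 8 and Rbpj, the DNA-binding factor of Notch signalling, 4 of 9. Camk2d, Egln3, Gprin3, Rap1b, Rpl34, Slc1a2 and Tctex1d1 also had 4 members each. Genes differ in how much sequence lies within 100 kb of them, so these counts are not rates.

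Around TH2 genes the share of members was close to that among all distal sites. Of 53 distal sites nearest to a gene of a list of 26 TH2 genes, 13 were members (24.5%, interval 13.8 to 38.3%), beside 27.97% of all distal sites. They belonged to 9 genes. Csf2, the cytokine GM-CSF, had 4, Il13 had 2, and Il5, Il4ra, Il2ra, Il10, Nfil3, Epas1 and Itgav had 1 each. The distal sites nearest to Gata3, Il4, Rad50, Il1rl1, Il24, Il9, Il3, Ccr4, Ccr8, Pparg, Crem and Itgb3 held a GATA or AP-1 sequence in every case. These genes had only 1 to 5 distal sites each, too few to read the absence of a member as a trait of them.

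The tallest of these was 1828 bp upstream of Nfil3, a basic leucine zipper repressor, at chr13:52982401-52983400, with 131 reads (3.33 RPM) in library 1 and 69 reads (2.87 RPM) in library 2. Its nearest GATA sequence was 1174 bp away, while an AP-1 sequence lay 140 bp from the centre. The member in an intron of Epas1, a hypoxia-inducible factor, had 124 and 66 reads (3.16 and 2.74 RPM) at chr17:86779201-86779800 and was the only distal site of that gene. That 22966 bp downstream of Csf2 had 97 and 65 reads (2.47 and 2.70 RPM) at chr11:54226201-54227200, and that in an intron of Il2ra, the alpha chain of the IL-2 receptor, had 89 and 63 reads (2.27 and 2.62 RPM) at chr2:11662601-11663400. The member 30344 bp upstream of Il10, at chr1:130989201-130990200, had 123 reads in library 1 and 52 in library 2 (3.13 and 2.16 RPM). At Epas1, Csf2, Il2ra and Il10 a GATA sequence lay in the site, at least 104 bp from the centre.

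The remaining 8 members of the TH2 list were lower. At Il13 they had 2.27 and 1.83 RPM and 1.81 and 1.62 RPM, at Il4ra 1.22 and 1.54 RPM, at Il5 1.12 and 1.54 RPM and at Itgav, the integrin subunit studied with these cells, 2.09 and 1.37 RPM. The other 3 at Csf2 ranged from 1.27 to 2.32 RPM in library 1 and from 0.997 to 1.83 RPM in library 2. Of all 13, the member at Il4ra was the only one with neither sequence in its site. That site was the centre bin alone, in which the rule leaves neither, while the other sites were wider.

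The other lists gave few members. They were 3 of 18 distal sites nearest to TH1 and cytotoxic genes (at Ifng, Runx3 and Il12rb2, all at most 1.08 RPM in both libraries), 7 of 26 nearest to T cell receptor and costimulation genes, and 10 of 56 nearest to factors of naive T cells. In the second list the tall members were those at Cd247, given above, and 4515 bp from the start of Cd3d, a chain of the CD3 complex, with 137 and 80 reads (3.49 and 3.32 RPM). In the third they were at Foxo1 (2.62 and 2.74 RPM) and Ets1 (3.18 and 2.62 RPM). The intervals of the shares were 3.58 to 41.4%, 11.6 to 47.8% and 8.91 to 30.4%, each of which includes the 27.97% of all distal sites. Of the 65 listed genes 4 lay where over 50% of the bins within 50 kb held no read in either library and were not analysed here.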

How the data were processed

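Reads were aligned to GRCm38 with Bowtie2 2.3.5.1 and reads without a unique position were removed by the authors, whose processing notes also list MACS2 2.1.2. Deposited were the coordinates and strand of every read with its mapping quality score. That score (22 to 44) was used only as a filter in an alternative. Within a library 0 reads shared a 5′ end and strand, so duplicates had been removed, which limits the height of a bin. Counts of 40526613 and 24970952 deposited reads give the depth, and 1 read is 0.0255 RPM in library 1 and 0.0415 RPM in library 2.

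Reads were counted in 200-bp bins on chromosomes 1 to 19. Gene starts were those of 20807 protein-coding genes of GENCODE M21, and sequences were read from the RefSeq GRCm38.p6 reference. Stretches without reads were not analysed here. Local background was the mean of bins 1 to 5 kb away, with the library mean of 3.19 or 1.96 reads per bin as its floor. Exact binomial and Poisson tests used Benjamini-Hochberg adjustment and were tried on simulated counts. Those counts were drawn from the Poisson model that the tests assume, without further spread, so they cannot show how the tests behave on real libraries. The tests measure counting error within these libraries. Intervals are 95% Clopper-Pearson or exact Poisson and cover counting error only. Sites were named by fixed rules (the 10 tallest, the 5 tallest nearest to a TH2 gene, 3 on either side of the threshold), and others after their values were seen. Members and lists were chosen with earlier results of these data known. The work used Python 3.11.15, NumPy 2.4.6, SciPy 1.17.1 and Matplotlib 3.10.9.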

Additional observations from a re-analysis of the deposited data

How the results depend on the processing

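The 2260 members (27.97% of distal sites) depended most on how the sequences were searched. With a search within 50 bp of the centre they numbered 4349 (53.8%), within 250 bp 626 (7.75%), with AGATAA as the only GATA sequence 4384 (54.3%), with the core GATA in any context 986 (12.2%), and with neither sequence in the whole site 1243 (15.4%). The refined centre left 1935 (23.9%), and this setting and the whole-site search were chosen after seeing the data. A threshold of 0.6 RPM gave 3939 and one of 1.2 RPM gave 1073. From 1 library alone there were 3080 to 3409. The other shifts, the moved grid, mapping quality of at least 30, thinning of library 1, all annotated gene starts and the range of 2 to 50 kb kept the count within 1.5 times.

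The median height in library 1 was 1.04 RPM at a threshold of 0.6 RPM, 1.86 at 1.2 RPM, 1.43 within 50 bp and with AGATAA only, and 1.15 on library 1 alone. In library 2 it was 0.914 and 1.74 RPM at these thresholds and 1.12 on library 2 alone. The median GC content was 46.0% at 1.2 RPM, on the moved grid, with all annotated gene starts and without replicate 2, 45.5% within 50 bp and with AGATAA only, 47.0% within 250 bp, 47.5% with the core GATA, and 46.5% without replicate 1.

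The 10 of 2260 members that differed between the libraries became 4 of 1073 at 1.2 RPM, 1 of 626 within 250 bp and 4 of 986 with the core GATA. They became 23 of 4384 with AGATAA only, 3 of 2289 with library 1 thinned, 6 of 2255 on the moved grid and 6 of 2260 at an adjusted p of 0.01. In the main setting 0.444% of all sites differed, and the share over all sites was not counted under the alternatives. The 2 of 2260 members with unequal strands became 4 of 1073 at 1.2 RPM, 5 of 4349 within 50 bp, 1 of 626 within 250 bp and 8 of 4384 with AGATAA only. They became 0 of 2360 without a shift, 0 of 2404 with a shift of 50 bp, 5 of 2255 on the moved grid and 0 of 2260 at an adjusted p of 0.01. With 1 library alone they were 2 of 3409 and 3 of 3080. In the main setting 0.0926% of all sites in library 1 and 0.102% in library 2 were unequal. The cause of the moves in these 2 counts was not tested.

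Of the motif-free sites of library 1, 95.6% were called in library 2. This share was 92.7% at an adjusted p of 0.01, 93.6% with library 1 thinned and 99.4% at 1.2 RPM. Over all distal sites the shares were 92.9, 94.9 and 99.5%, beside 95.9% in the main setting. The share of motif-free sites of library 2 called in library 1 (96.9%) was 95.6%, 95.7% and 99.6%. Over all distal sites it was 97.4, 97.4 and 99.8%, beside 98.2% in the main setting. The GATA core stood 15.7 percentage points above flanking bins at 1 kb, 12.9 above those at 3 kb, 18.9 above at the members of at least median height and 1.12 above with its letters reversed. With letters reversed, the differences of STAT (-0.282 points) and of GATA with C or G before and A or G after it (-0.04) changed sign. Sign also changed for sequences that had not separated from the flanks: NFAT (0.51 to -1.47), KLF (0.05 to -1.45), nuclear receptor (0.53 to -0.79), CAGCTG (1.24 to -0.033), NFY (-0.35 to 1.5) and GATA with both neighbours changed (0.33 to -2.58), while TCF/LEF went from 0.51 to 3.84. Reversed, IRF, CCGGAA and CACGTG were also lower in members (3.01, 9.65 and 4.74%) than in flanks (3.28, 10.7 and 5.44%). With flanks at 3 kb, CAGCTG (-0.55), KLF (-0.32) and GATA with both neighbours changed (-0.24) changed sign. At the members of at least median height, TCF/LEF (-0.6) and KLF (-0.84) did. No paired analysis was possible because there was only 1 group of samples. With 2 libraries of 1 condition and no input, depth limits the motif-free sites near the threshold, where 1 read in library 1 decides membership.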

Other observations

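The 10 members whose counts differed between the libraries were nearest to 10 different genes. The largest differences were in opposite directions. The member near Lactb had 110 reads (2.80 RPM) in library 1 and 25 reads (1.04 RPM) in library 2, and that near Erc1 had 117 and 28 reads (2.98 and 1.16 RPM). The member near Shcbp1l had 33 reads (0.840 RPM) in library 1 and 56 reads (2.33 RPM) in library 2, and that near Ppp1r12a had 38 and 58 reads (0.967 and 2.41 RPM). Log2 ratios of library 2 to library 1 ran from -1.43 to 1.47, given as a description because these counts chose the members. Library and sequencing instrument cannot be told apart.

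Members were the only distal sites of 893 of the 4643 genes nearest to a distal site, and were 27.97% of all distal sites. Without the same count for the other classes, the number of such genes is not read as a trait of the members. All 4 distal sites nearest to Rpl34, a ribosomal protein gene, and all 4 nearest to Tctex1d1 had neither sequence in the centre bin, and so did all 3 nearest to Akap11, a scaffold of protein kinase A. Gprin3 had 4 of 5. These genes were picked from the counts after they had been seen.

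Tetramers were compared in the same way as hexamers. Of 136 tetramers, counted with their reverse complements, the highest ratios of members to flanking bins were those of ATCG (23.4% against 16.8%, ratio 1.39) and GATA (56.4% against 40.7%, ratio 1.39), followed by ACGT (19.6% against 15.4%) and GATC (47.9% against 38.1%). The median ratio over all tetramers was 1.02.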
